A study of Mus musculus with 12 samples.

Results

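Oxidative phosphorylation is the process in which electrons from NADH and succinate pass through complexes I to IV of the inner mitochondrial membrane and the proton gradient they build drives ATP synthase, complex V. Most subunits of these complexes are encoded in the nucleus, and several subunits of complex IV, cytochrome c oxidase, exist as pairs of genes with one form in most tissues and another mainly in heart and skeletal muscle. The transcripts of these nuclear genes were followed in C2C12 cells, a mouse myoblast line that leaves the cell cycle and forms contractile myotubes when serum is withdrawn. Probes were taken whose gene symbol began with Nduf, Sdh, Uqcr, Cox4, Cox5, Cox6, Cox7, Cox8 or Atp5 and that were detected at p under 0.05 on at least 2 of the 12 arrays. Of 122 probes so named, 119 passed and represented 83 of the 10346 named genes measured. They comprised 33 genes of complex I, 3 of complex II, 6 of complex III, 13 of complex IV and 16 of complex V, giving 71 subunit genes. The remainder were 11 assembly factors (Ndufaf and Sdhaf genes), which help to build complexes without staying in them, and 1 pseudogene, Ndufs5-ps. Ndufa4 was counted with complex IV, where its protein is found in spite of its name.

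The series held 6 groups with 2 Illumina BeadChip arrays each. Wild-type C2C12 cells were taken in growth medium (GM) or in differentiation medium (DM). The other groups, all in differentiation medium, had received pools of siRNA with a scrambled sequence (siScramble) or against BRG1 (siBRG1), BAF60b (siBAF60b) or BAF60c (siBAF60c), which are the ATPase and a pair of alternative subunits of the SWI/SNF chromatin remodelling complex. Per the labels, transfection took place in 15% serum, the shift to ITS medium followed after 36 h, and RNA was taken 18 h after the shift. The transfection entry of the wild-type samples is "control", and the same protocol text stands with every sample, so it is not known here which reagent those cells received. Whether the replicates came from separate cultures is not stated, so a p-value here sets a difference against a spread between arrays that could be technical only.

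Between 28.1% and 34.0% of all probes were detected on an array, and the mean bead signal ran from 335 to 839. Of 8 myoblast and muscle markers, 6 rose in DM and 5 in siScramble against GM (Myog, Ckm, Actc1, Tnnt3 and Mymk, and in DM also Des). Myod1 was called in neither, at -0.48 and -0.59, and Myf5 was detected on only 2 arrays. Of the markers of other cell types, 1 of 5 adipocyte, 1 of 4 macrophage, 1 of 3 endothelial, 2 of 5 osteoblast and chondrocyte and 2 of 4 neuronal markers passed detection, while the fat cell genes Adipoq, Fabp4, Cebpa and Plin1 and the neuronal genes Tubb3 and Rbfox3 did not. Pparg, detected on 11 arrays, was 7.83 and 7.77 in GM and was lower in DM (-2.36, adjusted p = 0.00016) and siScramble (-1.24, adjusted p = 0.020). Map2, also detected on 11 arrays, was higher in siScramble than in GM (2.72, adjusted p = 7.9e-05) and DM (1.99, adjusted p = 0.0041), and its part in the subunit results was not tested. The transcript of each siRNA target, as a share of its siScramble level, stood at 53% for Smarca4 (BRG1), 34.1% for Smarcd2 (BAF60b) and 52.3% for Smarcd3 (BAF60c), with limma adjusted p over all probes of 0.63, 0.99 and 1.00. DM replicate 2 stood apart. Its correlation with DM replicate 1 over the named genes was 0.945, against 0.979 to 0.988 within the other groups, and values that turn or move widely without it are given both ways.

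The promoters of 2 muscle-type cytochrome c oxidase genes that were called higher in DM than in GM, Cox7a1 and Cox8b, are shown first. Beside them stand those of Cox6a1 and Cox7a2, widely expressed forms of subunits VIa and VIIa of the same complex, which passed no test. Each window runs from 250 bases before to 50 after the RefSeq gene start in the GRCm38.p6 mouse assembly and is written 5′ to 3′ on the gene's strand. It lies at chr7:30183921-30184220 (plus strand) for Cox7a1, chr7:140900397-140900696 (minus) for Cox8b, chr5:115348909-115349208 (minus) for Cox6a1 and chr9:79759804-79760103 (minus) for Cox7a2. Capitals mark the motifs searched on both strands, which were CAGCTG and CAGGTG (E-boxes of the kind bound by MyoD and myogenin), the NRF1 core (GCGC on either side of an A with any base after it), CCGGAAG (an ETS site, the family of GABPA) and the MEF2 consensus.
Cox7a1: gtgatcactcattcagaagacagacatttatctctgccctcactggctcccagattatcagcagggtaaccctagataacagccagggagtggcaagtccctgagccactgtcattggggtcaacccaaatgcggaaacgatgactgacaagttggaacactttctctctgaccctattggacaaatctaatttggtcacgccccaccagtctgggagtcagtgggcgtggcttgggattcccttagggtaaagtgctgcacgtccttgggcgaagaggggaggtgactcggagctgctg
Cox8b: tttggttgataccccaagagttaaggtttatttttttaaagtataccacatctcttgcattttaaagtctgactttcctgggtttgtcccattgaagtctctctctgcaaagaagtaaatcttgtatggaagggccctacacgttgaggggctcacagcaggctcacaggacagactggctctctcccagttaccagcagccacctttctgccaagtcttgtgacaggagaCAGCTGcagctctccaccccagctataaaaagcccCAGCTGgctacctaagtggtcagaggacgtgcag
Cox6a1: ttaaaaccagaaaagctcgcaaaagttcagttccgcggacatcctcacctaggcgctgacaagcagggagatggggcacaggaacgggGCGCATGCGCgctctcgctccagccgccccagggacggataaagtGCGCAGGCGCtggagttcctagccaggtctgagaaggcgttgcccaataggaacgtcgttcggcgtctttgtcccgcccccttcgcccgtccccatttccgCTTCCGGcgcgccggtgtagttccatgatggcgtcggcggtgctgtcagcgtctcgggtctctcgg
Cox7a2: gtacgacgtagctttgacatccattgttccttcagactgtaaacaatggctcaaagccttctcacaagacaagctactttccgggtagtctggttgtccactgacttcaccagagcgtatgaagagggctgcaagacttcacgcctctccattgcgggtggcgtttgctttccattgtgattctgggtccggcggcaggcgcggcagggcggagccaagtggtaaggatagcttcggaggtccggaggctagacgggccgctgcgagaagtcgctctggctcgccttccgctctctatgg
The Cox8b window held CAGCTG at 2 places, both close to the gene start, and none of the other motifs. The Cox6a1 window held the NRF1 core at 2 places and the ETS motif at 1. The windows of Cox7a1 and Cox7a2 held none of these letters, which says nothing about the factors themselves. Nor did that of Ndufv3 (not shown), a complex I gene also called higher in DM. Across the subunit genes, 61 of 71 had an entry, with 66 windows. The NRF1 core stood in 24.2% of these windows and in 4.6% of all 32851 windows of the same length in the table. CCGGAAG stood in 24.2% of the subunit windows against 8.86% of all. CAGCTG went the other way, at 7.58% against 16.3%, and CAGGTG was at 22.7% against 20.2%. The MEF2 consensus was in 0 of 66 subunit windows and in 3.19% of all. Cox6a2, Cox4i1, Cox6c, Uqcrq, Uqcrc2, Sdhc, Ndufa2, Ndufb9, Atp5a1 and Atp5mpl had no entry.

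The shift of wild-type cells from growth to differentiation medium raised 4 of the 71 subunit genes and lowered none, and 3 of the 4 were the muscle-type subunits of complex IV. The values are log2 intensities after background correction and quantile normalization, and a gene was called at an adjusted p under 0.05 in limma, with the adjustment over all probes tested. In the same comparison 16.8% of all named genes were called, 9.08% higher and 7.70% lower, and 11 subunit genes were at an unadjusted p under 0.05, beside 31.4% of all named genes. Scaling each array by its median instead of equalizing the distributions left 1 subunit gene called and turned the balance over all genes from 939 higher and 797 lower to 202 higher and 1164 lower. In bulk RNA, fewer cells of a type and less RNA per cell cannot be told apart, and the same holds for more cells and more RNA.

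Cox6a2, the heart and muscle form of subunit VIa, had log2 intensities of 6.33 and 5.99 on the GM arrays and 10.28 and 9.60 on the DM arrays. All 4 values were detected, and the groups were separated by more than 3 units. The difference was 3.78 (SE 0.46, 95% confidence interval 2.79 to 4.77), a 13.7-fold rise with an adjusted p of 0.00011. Cox7a1, the muscle form of subunit VIIa, was 6.53 and 6.26 in GM and 8.71 and 7.77 in DM, again without overlap, and rose 3.60-fold (1.85, SE 0.36, adjusted p = 0.0041). Cox8b, a form of subunit VIII found in muscle and brown fat of mice, was 6.60 and 5.71 in GM and 9.23 and 7.86 in DM. Its replicates lay further apart than those of the other muscle forms, and its rise of 5.25-fold (2.39, SE 0.71, adjusted p = 0.038) was close to the threshold. On the arrays taken singly, the Cox8b difference from the GM mean was 3.08 on DM replicate 1 and 1.71 on replicate 2. The Cox8b rise was called under 13 of 22 alternative settings, with an adjusted p from 0.00046 to 0.25, and was not called without background correction, under median scaling, in the authors' processed values or without either GM array or DM replicate 1. Cox6a2 was called under all 22 alternatives and Cox7a1 under 19.

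The counterparts of Cox6a2 and Cox7a1 in other tissues showed no such shift. Cox6a1, the form of subunit VIa found in most tissues, was 14.22 and 13.98 in GM and 14.31 and 13.25 in DM, with overlapping groups and a difference of -0.32 (95% confidence interval -1.02 to 0.38). Cox7a2 was 10.04 and 10.25 in GM and 10.28 and 9.88 in DM, a difference of -0.07 (-0.73 to 0.60). Cox7a2l, a related protein that takes part in joining complexes III and IV into supercomplexes, was 10.69 and 10.72 in GM and 11.39 and 8.47 in DM. The DM arrays thus stood on both sides of GM for Cox7a2l. A p that misses the threshold does not show equal levels, and the width of these intervals is the limit of what 2 arrays per group resolve. Cox4i2, the counterpart of Cox4i1, was detected on 1 array only and did not pass the detection rule. No probe of the rule carried the symbol Cox8a, so Cox8b had no measured counterpart to set beside it.

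**Figure D1:**
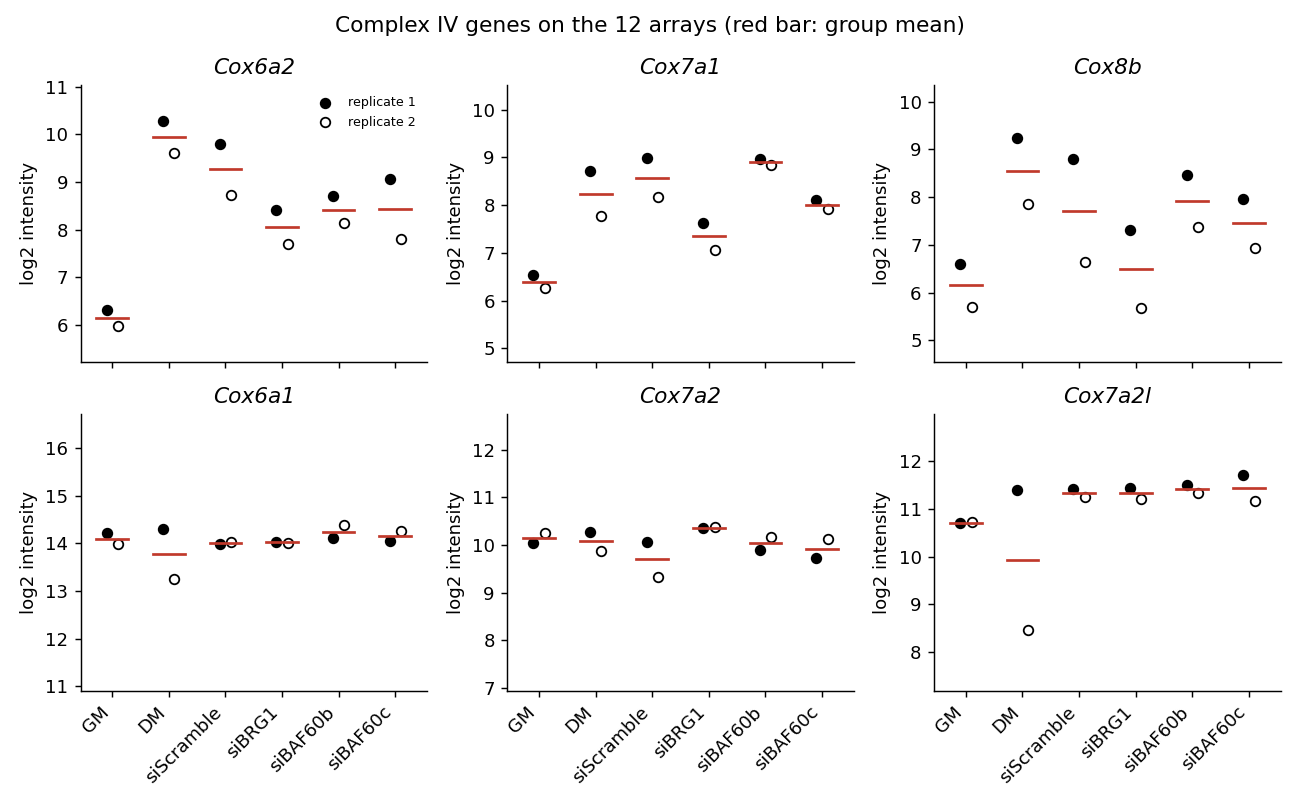
Log2 intensity (vertical axis, 5.8 units tall in every panel) of 6 complex IV genes on the 12 arrays, by group. Filled points are replicate 1, open points replicate 2 and red bars group means. Cox6a2, Cox7a1 and Cox8b are lowest in GM, at means of 6.16, 6.39 and 6.15, while Cox6a1 lies between 13.25 and 14.37, Cox7a2 between 9.33 and 10.37, and Cox7a2l is lowest on DM replicate 2, at 8.47.

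The fourth gene that rose was Ndufv3, a subunit of the NADH-oxidizing module of complex I. It was 12.74 and 12.39 in GM and 13.66 and 13.37 in DM, a 1.93-fold rise (0.95, SE 0.28, adjusted p = 0.035) that was called under 14 of the 22 alternatives. A second Ndufv3 probe, detected on all 12 arrays, differed by 0.88, and another was not well above background on either GM array. Among the other genes of complex I the differences ran from -1.15 for Ndufc2, a membrane-arm subunit, to 0.73 for Ndufs8, an iron-sulfur subunit, and none passed.

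Complex II was measured through Sdhb, the iron-sulfur subunit, and the membrane anchors Sdhc and Sdhd, with differences of 0.01, 0.43 and 0.12. In complex III, the core subunit Uqcrc1 was 11.10 and 11.05 in GM and 11.51 and 12.40 in DM (difference 0.88, adjusted p = 0.061), and the small subunit Uqcr11 was 13.68 and 13.79 against 14.26 and 14.77 (0.78, adjusted p = 0.083). Both sets of arrays were separate, yet neither gene passed. The lowest of complex III was Uqcrh, the hinge protein beside cytochrome c1, at -0.61 with overlapping groups and at 0.21 without DM replicate 2. In complex IV, Cox4i1, a subunit that binds regulatory nucleotides, was 13.67 and 13.42 in GM and 14.01 and 14.33 in DM (0.63, adjusted p = 0.12), and the lowest was Ndufa4, at 13.96 and 13.56 in GM and 13.82 and 11.75 in DM (-0.98). In complex V the catalytic subunit genes were at 0.94 for Atp5a1 (alpha, adjusted p = 0.069) and 0.51 for Atp5b (beta, adjusted p = 0.21), while Atp5pb, subunit b of the stator, was the lowest at -1.39 (adjusted p = 0.16). These low values rest on DM replicate 2. Without it, the differences were 0.20 for Ndufc2, 0.06 for Ndufa4 and 0.09 for Atp5pb, and at the upper end 0.43 for Uqcrc1, 0.52 for Uqcr11, 0.46 for Cox4i1 and 0.59 for Atp5a1.

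Over the 71 subunit genes the median difference between DM and GM was 0.12, beside 0.07 over all named genes, and 45 lay above 0. By complex the medians were 0.11 for I, 0.12 for II, 0.51 for III, 0.31 for IV and 0.14 for V, and without DM replicate 2 they were 0.39, 0.26, 0.48, 0.52 and 0.41. The groups did not overlap for 28 genes in the higher and 2 in the lower direction, where 28.9% and 24.1% of all named genes were separated in this way. Under median scaling the subunit median turned to -0.63 and that of all genes to -0.48. Without Cox6a2, Cox7a1 and Cox8b the median over the other 68 genes was 0.12.

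**Figure D2:**
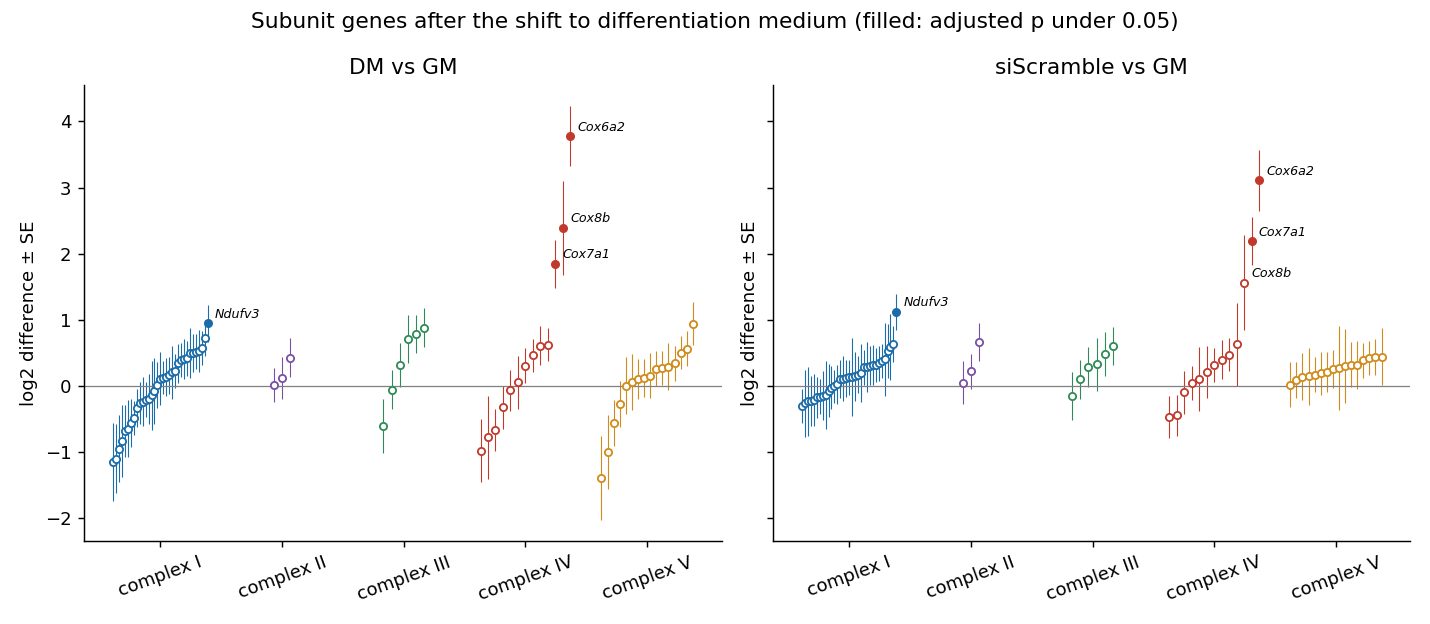
Log2 difference with its standard error (vertical axis) for each of the 71 subunit genes, ordered within its complex, for DM against GM (left) and siScramble against GM (right). Filled points passed at an adjusted p under 0.05. Cox6a2, at 3.78 and 3.11, is the highest in both panels, and no filled point lies below 0.

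The 2 DM arrays differed widely in the subunit genes. On DM replicate 2, 23 of the 71 subunit genes were more than 1 log2 unit lower than on replicate 1, and 0 were more than 1 unit higher. Over all named genes such gaps were about equally common in either direction, with 828 genes lower and 1008 higher on replicate 2. The siScramble arrays showed a smaller gap of the same direction, with 8 subunit genes more than 1 unit lower on replicate 2 and 0 higher, Cox6a2 and Cox8b among the 8, where 236 of all named genes were lower and 226 higher. The other groups had at most 2 such genes. The pattern included every complex but II, and in complex III it included Uqcrh only. Atp5pb was 11.33 on replicate 1 and 8.37 on replicate 2, beside 11.20 and 11.28 in GM. Ndufc2 was 11.19 and 8.49, beside 10.86 and 11.11 in GM. Ndufs4, an accessory subunit of complex I, was 12.35 and 9.82, beside 11.75 and 12.08. In each of these genes replicate 2 lay below every other array in the study. Some genes of complexes I, III, IV and V went the other way, with replicate 2 higher by less than 1 unit. The largest such gaps were in Uqcrc1, Ndufv1 (the flavin-binding subunit of complex I), Atp5a1 and Uqcr11.

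The median of the subunit genes relative to the GM mean was 0.42 on DM replicate 1 and -0.20 on DM replicate 2. When DM replicate 2 was left out, 66 of 71 subunit genes lay above 0 and the median was 0.42. When DM replicate 1 was left out, 32 lay above 0 and the median was -0.20. Cox6a2 then differed from GM by 3.44 and Cox7a1 by 1.38, while Atp5pb differed by -2.88 and Ndufc2 by -2.49. DM replicate 1 shared its BeadChip with GM replicate 1 and DM replicate 2 shared another with GM replicate 2. The part of the BeadChip and of RNA quality in this array's difference was not tested.

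**Figure D3:**
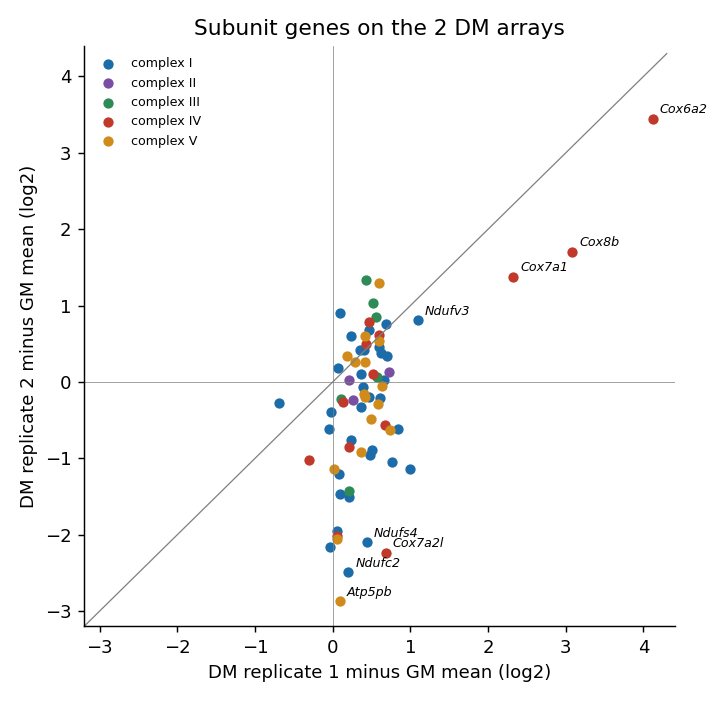
Each point is a subunit gene, coloured by complex, with its log2 intensity on DM replicate 1 (horizontal axis) and DM replicate 2 (vertical axis) minus the GM mean. The grey diagonal marks equal values. Cox6a2, Cox8b and Cox7a1 are high on both arrays, whereas 23 genes fall more than 1 unit below the diagonal, down to Atp5pb at 2.96 units.

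Different probes of one gene did not always share this drop. Atp5pb had 4 probes, whose differences between DM and GM ran from -1.75 to 0.27. Its probe with the largest drop was 11.35 on DM replicate 1 and 6.66 on replicate 2, while another, also detected on all 12 arrays, was 7.50 and 7.60. The same disagreement by more than 1 unit between probes was seen in this comparison for Atp5j, Atp5o, Ndufab1 and Ndufs6, counting only probes detected on all 4 arrays. Ndufab1, the mitochondrial acyl carrier protein, had 4 probes between -1.17 and 0.14. For Atp5j, coupling factor 6 of ATP synthase, the dimmer probe fell by 1.65 and passed, and with it 5 of 119 probes of the rule were called, beside 15.3% of all probes tested. These genes carry no single value for the shift in medium.

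The second comparison with growth medium used the transfected control. Against the same GM arrays, 3 of 71 subunit genes were higher in siScramble and none lower, where 10.4% of all named genes were called, 5.53% higher and 4.85% lower. At an unadjusted p under 0.05 there were 6, beside 24.3% of all named genes. Cox6a2 was 9.80 and 8.73 in siScramble, above both GM values, and rose 8.63-fold (3.11, SE 0.46, adjusted p = 0.00072). Cox7a1 was 8.98 and 8.17 and rose 4.55-fold (2.18, SE 0.36, adjusted p = 0.0018). Ndufv3 was 13.83 and 13.53 and rose 2.17-fold (1.12, SE 0.28, adjusted p = 0.022), a call made under 16 of 22 alternatives and lost with the BeadChip as a block (0.94, adjusted p = 0.071), under median scaling and when any 1 of the 4 arrays compared was left out. Cox8b was 8.79 on replicate 1 and 6.65 on replicate 2, the second barely above the higher GM value of 6.60, and its difference of 1.56 did not pass (SE 0.71, adjusted p = 0.22). On the BeadChip shared by GM replicate 1 and siScramble replicate 2, the differences were 2.41 for Cox6a2, 1.64 for Cox7a1, 0.80 for Ndufv3 and 0.04 for Cox8b.

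The subunit median for siScramble against GM was 0.21, beside 0.01 over all named genes, with 55 of 71 above 0. It turned to -0.60 under median scaling, where that of all genes was -0.58, and fell to 0.06 with the BeadChip as a block. All 16 complex V genes, each by its brightest probe, lay above 0 in the quantile-normalized values, and none passed. They ran from 0.02 for Atp5j to 0.44 for Atp5g2, one of the c-ring genes. Other complex V probes detected on all 12 arrays ran from -0.47 for Atp5j to 0.57 for Atp5pb, both with separate groups. On the BeadChip shared by GM replicate 1 and siScramble replicate 2, the 16 genes ran from -0.68 for Atp5md to 0.78 for Atp5g3. DM and siScramble share their GM controls, so these 2 comparisons are not independent of each other.

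Placed directly against each other, siScramble and DM differed in 0 of 71 subunit genes in limma, where 2.32% of all named genes were called. At an unadjusted p under 0.05 there were 10, beside 17.3% of all named genes. The largest differences were in genes that were low on DM replicate 2, with Atp5pb at 1.66 (adjusted p = 0.22) and Cox7a2l at 1.41 (adjusted p = 0.28). Without DM replicate 1 the subunit median was 0.37, and without DM replicate 2 it was -0.15. Cox6a2 differed by -0.67 (95% confidence interval -1.66 to 0.32) and Cox8b by -0.83 (-2.37 to 0.71).

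Knockdown of BRG1 was the condition with the lowest group means of the muscle-type subunits among the cells in differentiation medium. No subunit gene passed, and some of these arrays overlapped with those of the other knockdowns. Against siScramble, limma called 0 of 71, where 0.106% of all named genes were called, and 4 were at an unadjusted p under 0.05, beside 7.57% of all named genes. Cox7a1 was 7.64 and 7.06 in siBRG1 against 8.98 and 8.17 in siScramble. The groups were separate, and the difference was -1.23 (95% confidence interval -2.01 to -0.45, adjusted p = 0.35). Cox6a2 was 8.41 and 7.70 against 9.80 and 8.73, also separate, with a difference of -1.21 (-2.20 to -0.23, adjusted p = 0.55). Cox8b was 7.31 and 5.67 against 8.79 and 6.65, where the groups overlapped, with a difference of -1.23 (-2.77 to 0.31, adjusted p = 0.82).

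In siBRG1, Cox6a2 stood at 43.1% of siScramble, Cox7a1 at 42.7% and Cox8b at 42.7%, and all 3 differences were below 0 under each of 22 alternative settings without passing in any of them. Their size depended on single arrays. Without siScramble replicate 1 the shares were 62.4%, 56.6% and 89.8%, and without siScramble replicate 2 they were 29.8%, 32.3% and 20.3%. Without siBRG1 replicate 1 Cox8b was at 24.2%, and without siBRG1 replicate 2 at 75.2%. On the first BeadChip, the only one that siBRG1 and siScramble shared, the differences were -1.39 for Cox6a2, -1.35 for Cox7a1 and -1.48 for Cox8b. The level in siBRG1 was still above GM for Cox6a2 and Cox7a1, whose GM arrays reached 6.33 and 6.53. Other muscle transcripts were lower on the same arrays. The median of the 8 myoblast and muscle markers was -1.07, with 7 of 8 separate in the lower direction, beside 20.1% of all named genes. None passed in limma, 4 were at an unadjusted p under 0.05, and Ckm was at -1.50 (adjusted p = 0.34). A lower Ckm mean was not particular to siBRG1. Ckm was 8.73 and 8.24 in siBAF60b and 9.09 and 7.62 in siBAF60c, against 9.74 and 8.89 in siScramble. Myog was 11.09 and 10.20 in siBAF60b and 10.76 and 9.02 in siBAF60c, against 11.17 and 10.17 in siScramble. The part of an altered share of differentiated cells in the 3 muscle-type genes was not tested.

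The other 68 subunit genes differed from siScramble in siBRG1 cells by -0.24 for Ndufa10 to 0.75 for Ndufb4, both accessory subunits of complex I. Their median was 0.04. Low unadjusted p-values were not confined to the muscle-type genes, as Ndufb11 was higher at an unadjusted p of 0.048 in limma. It was detected on only 1 siBRG1 array and on neither siScramble array. Cox7a2 was 10.36 and 10.37 in siBRG1 and 10.07 and 9.33 in siScramble, separate in the higher direction (0.66, adjusted p = 0.70). Ndufv3 stayed within 0.14 of siScramble in each knockdown, and none of these differences passed.

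Knockdown of the BAF60 subunits left no called subunit gene either. For siBAF60b against siScramble, limma called 0 of 71 and 0% of all named genes, and 0 were at an unadjusted p under 0.05, beside 3.14% of all named genes. Cox6a2 was 8.70 and 8.13, separate from siScramble by a narrow margin, with a difference of -0.85 (95% confidence interval -1.84 to 0.14). Cox7a1 was 8.97 and 8.85, both inside the range of the siScramble arrays, with a difference of 0.33 (-0.45 to 1.11), and Cox8b differed by 0.20 (-1.34 to 1.74). For siBAF60c against siScramble the count was likewise 0 of 71, with 0% of all named genes called, and 0 were at an unadjusted p under 0.05, beside 4.31% of all named genes. Cox6a2 differed by -0.84 (-1.83 to 0.15), Cox7a1 by -0.57 (-1.35 to 0.21) and Cox8b by -0.26 (-1.80 to 1.27).

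The 3 knockdown comparisons share the siScramble arrays, so each gene's values are set side by side and no agreement between them is counted. The subunit medians were 0.03 in siBRG1, 0.09 in siBAF60b and -0.03 in siBAF60c, beside 0.01, 0.00 and 0.00 over all named genes. Median scaling moved them to 0.42, 0.31 and -0.11, with all-gene medians of 0.32, 0.17 and -0.01. The number of subunit genes above 0 was 40, 50 and 31 of 71.

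**Figure D4:**
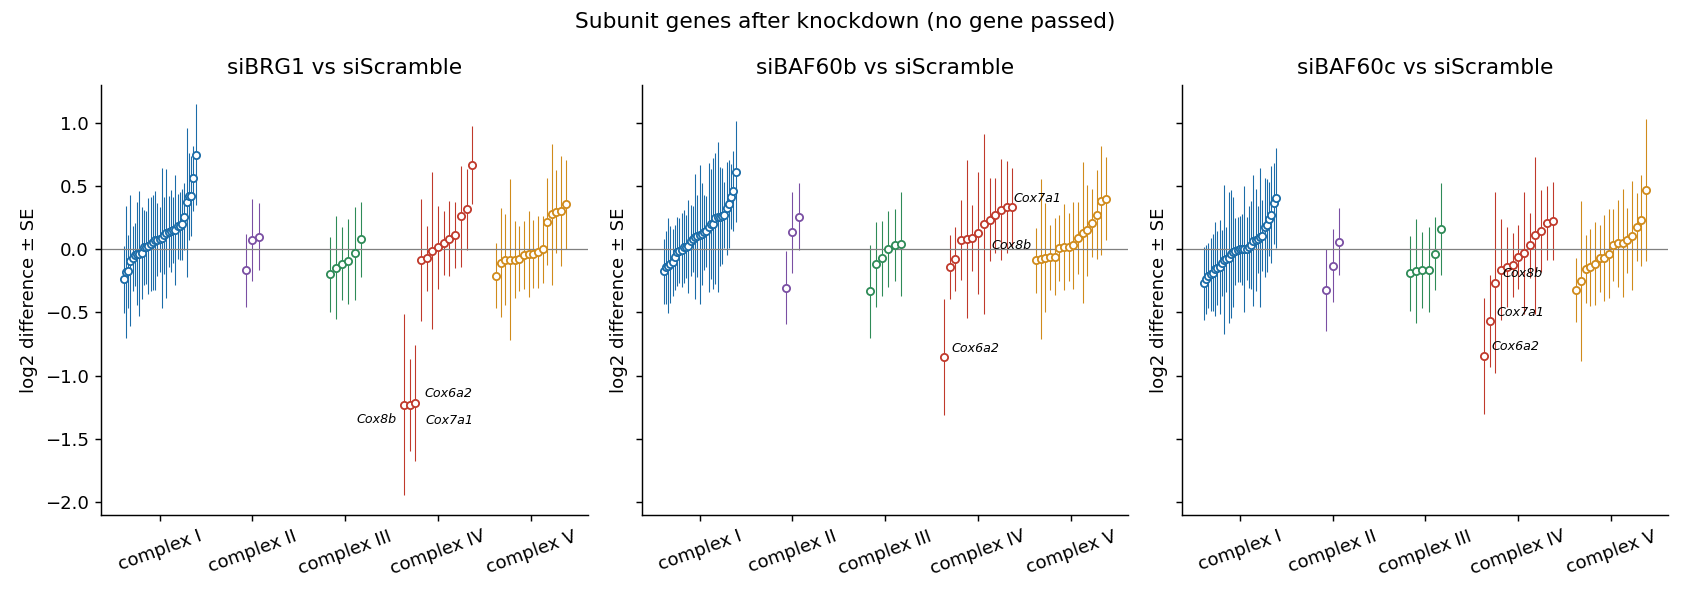
Log2 difference from siScramble with its standard error (vertical axis) for the 71 subunit genes, ordered within each complex, after knockdown of BRG1 (left), BAF60b (middle) and BAF60c (right). Open points did not pass. Cox6a2, Cox7a1 and Cox8b, at -1.21, -1.23 and -1.23, lie below the other genes in the left panel, and Cox6a2 is the lowest gene in the other panels.

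Comparing the knockdowns with each other avoids the siScramble arrays. Between siBRG1 and siBAF60b, limma called 0 of 71, where 0.00967% of all named genes were called, and 1 was at an unadjusted p under 0.05, beside 5.56% of all. That gene was Cox7a1, at 7.64 and 7.06 against 8.97 and 8.85, separate by more than 1 unit. Its difference of -1.56 (95% confidence interval -2.34 to -0.78, adjusted p = 0.26) passed with array weights, at an adjusted p of 0.012, and under none of the other alternatives. Between siBRG1 and siBAF60c, 0 of 71 were called, where 0.0677% of all named genes were, and 1, Ndufb11, was at an unadjusted p under 0.05, beside 6.50% of all. Ndufb11, an accessory subunit of complex I, was detected on 1 of the 2 siBRG1 arrays and on neither siBAF60c array, so no size is given. Cox7a1 differed there by -0.66 (-1.44 to 0.12). Cox6a2 differed by -0.37 (-1.36 to 0.62) and Cox8b by -0.96 (-2.50 to 0.57), and for both genes the siBRG1 and siBAF60c arrays overlapped. Cox6a2 also overlapped between siBRG1, at 8.41 and 7.70, and siBAF60b, at 8.70 and 8.13. Cox8b was separate there, at 7.31 and 5.67 against 8.45 and 7.38.

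Between siBAF60c and siBAF60b, limma called 0 of 71 and 0% of all named genes, but the small differences ran mainly one way. At an unadjusted p under 0.05 there was 1, beside 4.56% of all named genes. Of the 71 subunit genes, 56 were lower in siBAF60c, and the arrays were separate for 25 in the lower and 0 in the higher direction, where 18.0% of all named genes were separate in the lower direction and 17.7% in the higher. In complex I, 29 of 33 genes were lower. The median was -0.09, beside 0.00 over all named genes, and it was -0.09 in the authors' processed values and -0.40 under median scaling, where that of all genes was -0.18. The gene with the unadjusted p under 0.05 was Cox7a1, at 8.10 and 7.92 in siBAF60c against 8.97 and 8.85 in siBAF60b (-0.90, 95% confidence interval -1.68 to -0.12). Atp5a1 followed by its brightest probe, at -0.52 (-1.22 to 0.19). A dimmer Atp5a1 probe, detected on every array of both groups, went the other way. It was 7.30 and 6.90 in siBAF60c against 6.83 and 6.40 in siBAF60b, with separate arrays, so Atp5a1 carries no single direction here. Both groups had 1 array on each of the same 2 BeadChips.

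**Figure D5:**
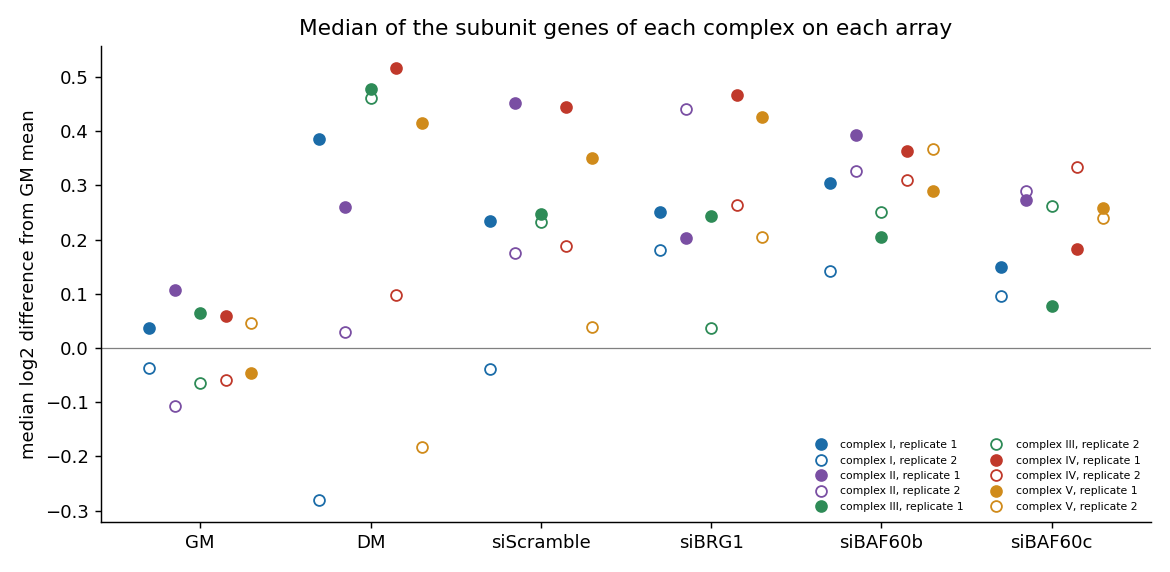
Median over the subunit genes of each complex (colours) of the log2 difference from the GM mean, on each of the 12 arrays. Filled points are replicate 1 and open points replicate 2. Complexes I and V lie lowest on DM replicate 2, at -0.28 and -0.18, and complex III stays at 0.48 and 0.46 on the 2 DM arrays.

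The assembly factors named by the rule gave no call in any of the 9 comparisons. In DM against GM, 5 of 11 lay above 0 with 2 at an unadjusted p under 0.05, beside 31.4% of all named genes. Ndufaf4, which acts on complex I, was the lowest at -0.95 (adjusted p = 0.055). Another Ndufaf4 probe, detected on all 12 arrays, differed by only 0.03. Ndufaf3, which also acts on complex I, was at 0.82, but it was detected on 1 of the 2 GM arrays only. A wider list of 45 assembly factors, of which 38 were measured, had 0 called higher and 1 lower in DM, beside 9.08% and 7.70% of all named genes. That gene was Cmc2, a cytochrome c oxidase biogenesis factor, at -0.87 (adjusted p = 0.037). The pseudogene Ndufs5-ps, whose probe may read the near-identical coding gene, differed by 0.18 between DM and GM.

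Other mitochondrial gene lists were read against the 16.8% of all named genes called in DM against GM, and on lists this small a few calls cannot be set apart from that share. Of 10 coenzyme Q synthesis genes, 1 rose, Coq8b, an atypical kinase needed for that pathway, by 3.36-fold (1.75, adjusted p = 0.0050). Of 9 electron carriers and transfer enzymes, 1 fell, Gpd2, the mitochondrial glycerol-3-phosphate dehydrogenase, at -2.03 (adjusted p = 0.0021). Of 16 genes of the citric acid cycle and pyruvate dehydrogenase, 2 rose, Dlst by 1.00 and Pdhx, and the list's median was 0.48. Pdhx, which binds the E3 enzyme to the pyruvate dehydrogenase core, was not well above background on either GM array, so its rise (adjusted p = 0.0097) is given only as at least 1.57-fold, the DM mean against the lowest signal detected on the GM arrays. None of 6 adenine nucleotide and phosphate carriers was called in limma, with 1 at an unadjusted p under 0.05, and none of 24 import genes, with 4, beside 31.4% of all named genes.

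Among 17 regulators of mitochondrial biogenesis, 1 rose and 2 fell in DM against GM, a share close to the 16.8% of all named genes. Polrmt, the mitochondrial RNA polymerase, rose by 0.99 (adjusted p = 0.027). The 2 that fell encode the partners of GA-binding protein, the ETS factor of the motif above, Gabpa and Gabpb1. Gabpa was not well above background on either DM array, so its level was at least 1.56-fold lower in DM (adjusted p = 0.016). Gabpb1 was at -1.15 (adjusted p = 0.025) and was detected on 1 of the 2 DM arrays. In siScramble against GM they were at -0.93 (adjusted p = 0.066) and -0.27 (adjusted p = 0.70), and neither passed. Of 72 mitochondrial ribosome genes, 1 rose and 2 fell in DM, beside 9.08% and 7.70% of all named genes. Among the 72, 54 lay below 0 and the median was -0.26, opposite in sign to that of the subunit genes over both DM arrays. The ribosomal median was -0.03 on DM replicate 1 and -0.50 on DM replicate 2. On the same arrays the subunit median was 0.42 and -0.20, so the contrast in sign did not hold on replicate 2.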

How the data were processed

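Total RNA of 12 C2C12 samples was hybridised to Illumina mouse BeadChips in 1 colour, from 500 ng per the labels. The scanner table as deposited gives, for each of 45281 probes, a bead intensity and the p-value of its detection, per the file headers. The authors also deposited a processed table with intensity values for 23165 probes on a linear scale, with column medians that differed by at most 0.14. Its normalization, the software and the genome build are not given in the sources used here.

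Background was corrected from the detection p-values (normexp, offset 16), arrays were quantile normalized and log2 was taken (limma 3.58.1, R 4.3.3). The 17565 probes detected on at least 2 arrays were fitted in 1 model of the 6 groups without covariates, with Benjamini-Hochberg adjustment over them and a threshold of 0.05. A difference had 6 residual and 7.44 prior degrees of freedom and a median SE of 0.32, and 2 arrays per group limit the precision. Each gene was represented by its brightest probe. Of the annotated probes, 19589 had 1 symbol, 8 several and 3568 none, with symbols updated by Entrez ID, and 2439 kept probes had no single symbol. Exact permutation of 2 against 2 arrays cannot give a p below 0.333.

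Named were the called genes, the highest and lowest gene of each complex, isoform sets, genes whose probes disagreed by over 1, and the largest called members of context lists. Members and lists were chosen with earlier results of these data known. Alternatives covered background correction, scaling, the authors' values, the detection filter, the fitted samples, array weights, blocks and each left-out array. The code was tested on simulated data. Over all groups the replicate numbers did not pair the samples, as correlations of same-numbered deviations ran from -0.02 to 0.32. They were 0.23 to 0.31 among siScramble, siBAF60b and siBAF60c, whose equal numbers share a BeadChip, and neither block gave a call in comparisons among these groups. Promoters are from RefSeq.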

Additional observations from a re-analysis of the deposited data

How the results depend on the processing

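The count of 4 subunit genes called in DM against GM became 12 without background correction, 12 in the authors' processed values, 1 under median scaling, 1 with only the compared groups fitted, 2 with array weights, and 1 to 26 when single arrays were left out, the 26 without DM replicate 1 and the 1 without GM replicate 2. For siScramble against GM the count of 3 became 1 under median scaling and 2 to 3 with an array left out. For siScramble against DM it became 1 with the BeadChip as a block and 0 to 20 with an array left out. For siBRG1 against siBAF60b it became 1 with array weights. The cause was not tested. Subunit medians under median scaling were -0.63 (DM against GM), -0.60 (siScramble against GM), 0.42 (siBRG1) and 0.31 (siBAF60b), and with the BeadChip block 0.058 (siScramble against GM) and 0.19 (siBRG1). With an array left out they ran from -0.20 to 0.42 for DM against GM, 0.052 to 0.31 for siScramble against GM, -0.15 to 0.37 for siScramble against DM, -0.04 to 0.16 for siBRG1, -0.056 to 0.22 for siBAF60b and -0.15 to 0.079 for siBAF60c. A group left with 1 array was assumed to vary like the others. With the replicate number as a block, 4 genes were called for DM against GM and 4 for siScramble against GM, Cox8b being added, and no other count changed. Among the alternative counts, 186 stayed within 1.5 times the count given and 12 did not. The count given was 0 in every comparison except DM and siScramble against GM, so a count that stayed at 0 says little about stability.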
